A study of Mus musculus with 2 samples.

Results

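Immediate-early genes are transcribed within minutes of a growth signal and need no new protein synthesis to come on. The 10 genes described here are members of this class outside the AP-1 factors: the EGR transcription factors *Egr1*, *Egr2* and *Egr3*, the nuclear receptors *Nr4a1* and *Nr4a2*, the IER genes *Ier2*, *Ier3* and *Ier5*, the RNA-binding protein gene *Zfp36*, and *Srf*, which encodes serum response factor. They were picked by gene symbol from the 23183 genes measured, and all 10 were found. Messenger RNA was sequenced in mouse lung cancer cells before and after *Runx3* restoration, to find genes that depend on *Runx3*.

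KPR- cells are immortalized cells from lung cancers of mice with the alleles *Runx3* flox/FSF, *K-Ras* LSL-G12D/+ and *p53* flox/flox, a Tomato reporter and FlpERT2. The mice were infected through the nose at 6 to 8 weeks of age with an adenovirus whose Cre is driven by the CMV promoter, which activated *K-Ras* and inactivated *p53* and the floxed *Runx3* allele, and their lungs were taken 4 weeks later. The other *Runx3* allele is held off by a stop cassette that FlpERT2 removes when 4-hydroxytamoxifen (4-OHT) is given, which yields KPRrestored cells. The labels give the genotype RUNX3 -/- with a time of 0 h for KPR- and RUNX3 -/+ with 16 h for KPRrestored, and list 10% serum and 1 μM 4-OHT for both. Each group is 1 library, both lack *p53*, and the number of mice or clones behind the cells is not given in the sources used here. The labels and the study's account of how KPRrestored cells were made differ on whether KPR- was given 4-OHT. *Runx3*, hours in culture and, if KPR- was not given it, 4-OHT cannot be told apart.

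In resting cells a serum or growth factor signal runs through RAS and ERK to ETS-family partners of serum response factor, which sit with it on CArG boxes in the promoters of *Egr* and other immediate-early genes. A second input runs through CREB on cAMP response elements, best known for the *Nr4a* genes. The transcripts are short-lived, in part because AU-rich elements in many of them bind tristetraprolin, the product of *Zfp36*. Activated K-Ras feeds the same pathway in lung cancer.

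The values are FPKM, fragments per kilobase of transcript and scaled to the depth of the library, so levels can be compared between genes. The steps between low FPKM values put the depth of KPR- near 21.6 M fragments and that of KPRrestored near 22.4 M, and estimated fragments per gene follow from these depths and a transcript length. Differences are log2(FPKM + 0.005) in the library labelled KPRrestored minus the library labelled KPR-, and their 95% intervals are exact Clopper-Pearson limits from the estimated fragments. The intervals cover counting error only, not variation between cultures, and no p-value was computed because each group has 1 library. *Runx3* itself had 0.348 FPKM in KPR- and 0.349 FPKM in KPRrestored, about 28 and 29 fragments. Its log2 difference was 0.0074 with an interval of -0.80 to 0.80, so the library labelled KPRrestored showed no higher *Runx3* level and the gene does not check the labels. KPR- and KPRrestored therefore stand for the libraries so labelled in every direction given. All 5 epithelial markers (*Epcam*, *Cdh1*, *Krt8*, *Krt18*, *Krt19*) were present in both libraries, with summed levels of 4881 and 4625 FPKM. Of the 6 lung lineage markers, *Sftpc*, *Sftpb*, *Sftpa1*, *Napsa* and *Scgb1a1* were listed at 0 in both libraries and *Nkx2-1* stood at 0.0444 and 0.0216 FPKM. The immune markers *Adgre1* and *Cd3e* were also at 0, with *Ptprc* at 0 and 0.00892 FPKM and *Cd68* at 3.08 and 6.78 FPKM. The 6 mesenchymal markers summed to 1817 FPKM in KPR- and 1488 FPKM in KPRrestored, nearly all of it *Vim*. The 3 expressed ones, *Vim*, *Cdh2* and *Col1a1*, had intervals below 0, with *Cdh2* at -0.46 on the log2 scale and *Col1a1* at -1.53, from 12.2 to 4.21 FPKM. Of the 5 epithelial markers, 3 had intervals below 0 and 2 above. An interval below 0 was also found for 33% of the expressed genes, as defined below, that had estimated fragments. The 3 endothelial markers summed to 1.16 and 2.22 FPKM, mostly *Kdr*. The part of these differences in the results was not tested.

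Of the 10 genes, 9 were higher by 0.5 or more on the log2 scale in the library labelled KPRrestored and 0 were lower by as much. Expressed genes are taken here as those whose FPKM averaged 1 or more over both libraries. Of the 11231 expressed genes, 12.1% were higher by the same margin, and the share lower by it was 9.29%. In bulk RNA, more cells with a transcript and more transcript per cell cannot be told apart. *Egr2* and *Egr3* fall under this level, and of the other 8 genes 7 were past 0.5. The median difference of the 10 genes was 0.96, against 0.0086 for the 11231 genes, whose quartiles were -0.23 and 0.27. The counting interval lay above 0 for 8 of the 10 genes, as it did for 34.3% of the 11135 expressed genes with estimated fragments. *Srf* was the gene that did not differ past the threshold.

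**Figure D1:**
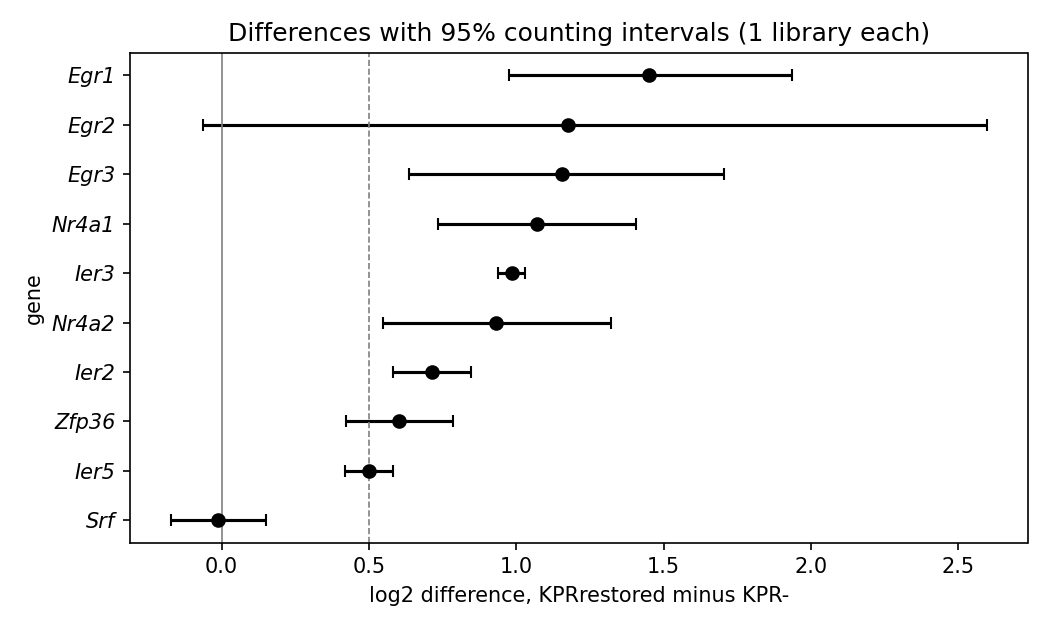
Log2 difference of each of the 10 genes, KPRrestored minus KPR-, with 1 library each. Points are log2(FPKM + 0.005) differences, bars are 95% exact counting intervals, the solid line marks 0 and the dashed line 0.5. The 9 genes other than *Srf* lie from 0.50 to 1.45, and the bars of *Egr2* and *Srf* cross 0.

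The EGR genes encode zinc finger transcription factors that bind GC-rich sites. *Egr1* had 0.83 FPKM in KPR- and 2.28 FPKM in KPRrestored, from about 51 and 144 fragments. It was 2.75-fold higher, a log2 difference of 1.45 with an interval of 0.97 to 1.94. The intervals of *Egr2*, *Egr3*, *Nr4a1*, *Nr4a2* and *Ier3* overlap it. Only 1.22% of the 11231 genes had a larger difference in this direction.

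*Egr3* had 0.548 FPKM in KPR- and 1.23 FPKM in KPRrestored, about 44 and 102 fragments, a log2 difference of 1.16 with an interval of 0.64 to 1.70. *Egr2*, known for its part in myelination and in lymphocytes, had 0.133 and 0.306 FPKM, from only about 8 and 19 fragments. Its log2 difference of 1.18 was close to that of *Egr3*, but the interval of -0.063 to 2.60 includes 0, so a difference was not detectable at this depth. Summed over the 3 genes, EGR transcripts went from 1.51 to 3.81 FPKM, so they were scarce in both libraries.

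*Nr4a1* (Nur77) and *Nr4a2* (Nurr1) encode orphan nuclear receptors, which act without a known hormone and are controlled largely by how much is made. *Nr4a1* had 2.24 FPKM in KPR- and 4.70 FPKM in KPRrestored, about 110 and 239 fragments, a log2 difference of 1.07 with an interval of 0.74 to 1.41. *Nr4a2* had 1.18 FPKM in KPR- and 2.25 FPKM in KPRrestored, about 86 and 170 fragments, a log2 difference of 0.93 with an interval of 0.55 to 1.32. The 2 intervals overlap over most of their length.

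The 3 IER genes are named for their early induction. *Ier3*, which encodes a small stress-responsive protein linked to cell survival and ERK signalling, had 296 FPKM in KPR- and 587 FPKM in KPRrestored, from about 5897 and 12101 fragments. It was thus 1.98-fold higher, a log2 difference of 0.98 with the narrowest interval of the 10 genes, 0.94 to 1.03. Its place among all 23183 genes by level moved from 250 to 126.

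*Ier2*, which encodes a nuclear protein of the immediate-early response, had 26.4 FPKM in KPR- and 43.3 FPKM in KPRrestored, about 748 and 1273 fragments. Its log2 difference was 0.71 with an interval of 0.58 to 0.85. *Ier5*, whose product is known to act with heat shock factor HSF1, had 30.3 FPKM in KPR- and 42.8 FPKM in KPRrestored, about 2004 and 2939 fragments. Its log2 difference of 0.50, with an interval of 0.42 to 0.58, was the smallest of the 1358 differences past the threshold among the 11231 genes, so a slight change of scale removes it.

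*Zfp36* encodes tristetraprolin, which binds AU-rich elements and speeds the decay of the mRNAs that carry them. It had 7.34 FPKM in KPR- and 11.1 FPKM in KPRrestored, about 409 and 644 fragments, a log2 difference of 0.60 with an interval of 0.42 to 0.78.

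*Srf* encodes the factor that binds CArG boxes and is itself a serum-responsive gene. It had 12 FPKM in KPR- and 11.9 FPKM in KPRrestored, about 626 and 644 fragments, a log2 difference of -0.011. The interval of -0.17 to 0.15 lies inside 0.5 either way, so a difference of the size of the other 9 is outside the counting error of these 2 libraries.

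**Figure D2:**
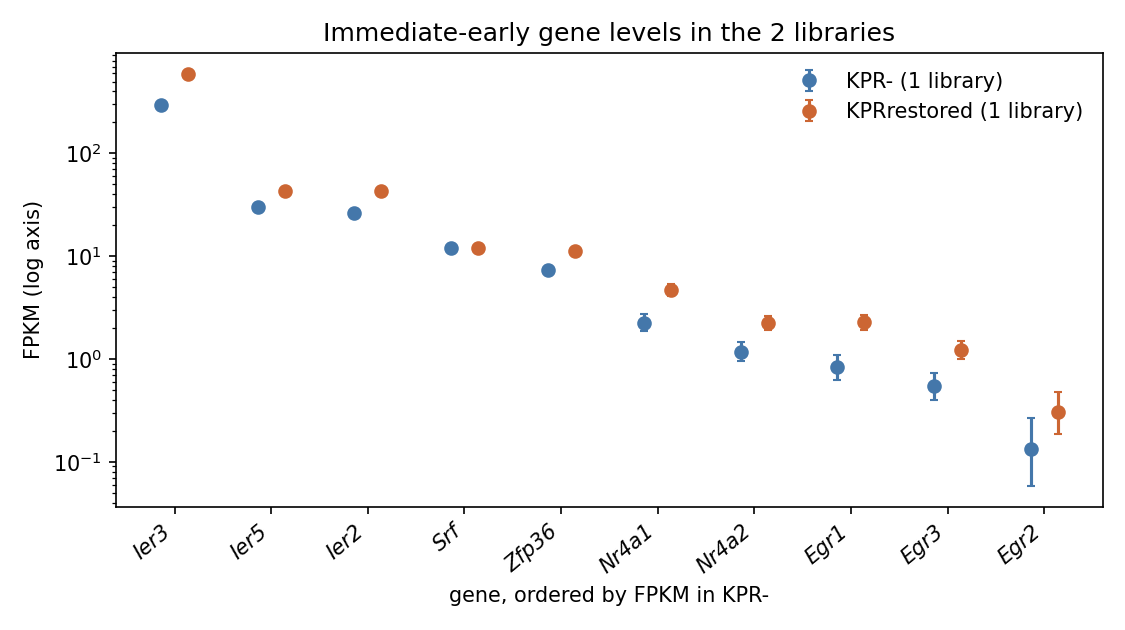
FPKM of the 10 genes on a log axis, KPR- in blue and KPRrestored in orange, 1 library each, ordered by the level in KPR-. Bars are 95% exact Poisson intervals of the estimated fragments. *Ier3* stands apart at 296 and 587 FPKM, *Egr2* is lowest at 0.133 and 0.306 FPKM, and the 2 points of *Srf* stand at the same height.

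In level, the genes of KPR- ran in the order *Ier3*, *Ier5*, *Ier2*, *Srf*, *Zfp36*, *Nr4a1*, *Nr4a2*, *Egr1*, *Egr3* and *Egr2*. *Ier3* alone held 78.5% of the summed FPKM of the 10 genes in KPR- and 83.0% in KPRrestored. It was 9.80 times the next gene in KPR- and 13.5 times the next gene in KPRrestored. In KPR-, the only neighbours whose FPKM ratio had a counting interval that included 1 were *Nr4a2* and *Egr1*, at 1.42 with limits of 0.992 and 2.05. *Egr1* and *Egr3* were at the border, with a ratio of 1.52 and limits of 1.002 and 2.34. The limits of these ratios were not recomputed with shorter transcripts in either library.

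In KPRrestored, 3 pairs of neighbours did not differ beyond counting error. *Ier2* and *Ier5* had a ratio of 1.01 with limits of 0.947 and 1.08. *Srf* and *Zfp36* had a ratio of 1.07 with limits of 0.960 and 1.20, whereas in KPR- *Srf* was 1.64 times as high as *Zfp36*. *Egr1* and *Nr4a2* had a ratio of 1.01 with limits of 0.80 and 1.26.

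**Figure D3:**
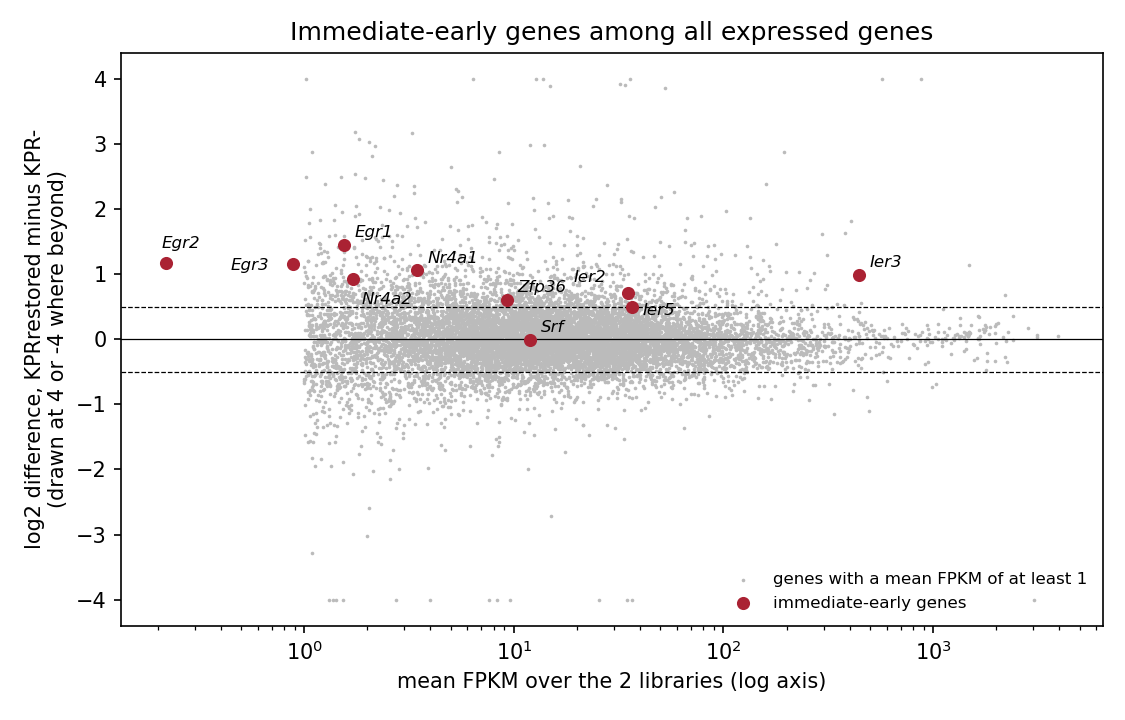
Log2 difference (KPRrestored minus KPR-) against mean FPKM over both libraries on a log axis, for the 11231 expressed genes (grey) and the 10 immediate-early genes (red). Dashed lines mark 0.5 and -0.5, and grey points beyond 4 or -4 are drawn at that value. *Srf* lies on 0 among the grey points and *Ier3* at 0.98 among the highly expressed genes.

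Low genes cross 0.5 more often than high ones, so the level matters for reading these counts. Of the 2469 genes with a mean FPKM from 1 to 5, 19.7% were higher by 0.5 or more, and *Egr1*, *Nr4a1* and *Nr4a2* lie there. The share was 11.5% of the 4399 genes from 5 to 20 FPKM, where *Zfp36* and *Srf* lie, and 8.49% of the 2568 genes from 20 to 50 FPKM, where *Ier2* and *Ier5* lie. Among the 1795 genes above 50 FPKM it was 8.36%, and *Ier3* was the 1 member in that range.

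The promoters were read for sites of the factors that are known to drive these genes. RefSeq promoter windows on GRCm38.p6, from 250 bases before to 50 after each start, were at hand for 7 of the 10 genes, 5 of them for *Egr2* and 1 each for *Ier3*, *Ier5*, *Nr4a1*, *Nr4a2*, *Srf* and *Zfp36*. A CArG box, searched on both strands, was found for 3 of the 7 genes, *Egr2*, *Srf* and *Zfp36*, and in 1.63% of all 32851 windows. Counted by gene over all windows of a gene, it was found for 1.54% of the 8594 expressed genes with a window. The stretches below show these boxes in capitals, with the surrounding promoter in lower case, 5′ to 3′ on the strand of the gene.

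The first lies at chr10:67537767-67537836 on the plus strand, its box at position -72 from the *Egr2* start at 67537869, and the next at chr10:67537464-67537533 with its box at -72 from another *Egr2* start at 67537566. That of *Srf* lies at chr17:46556185-46556274 on the minus strand and holds 2 boxes, at -82 and -62 from the start. That of *Zfp36* lies at chr7:28379267-28379296 on the minus strand, its box at -58 from the RefSeq start, and overlaps an annotated GENCODE exon of *Zfp36*.
Egr2, start at 67537869: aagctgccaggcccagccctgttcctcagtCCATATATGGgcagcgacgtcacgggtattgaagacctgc
Egr2, start at 67537566: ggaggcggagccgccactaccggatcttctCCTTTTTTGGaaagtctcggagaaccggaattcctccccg
Srf: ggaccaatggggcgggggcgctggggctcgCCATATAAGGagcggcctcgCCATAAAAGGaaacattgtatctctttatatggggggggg
Zfp36: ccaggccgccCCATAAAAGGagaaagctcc

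The pair of boxes in the *Srf* window is a rare arrangement, found in 6 of the 32851 windows (0.0183%), a count made after the boxes had been seen. The 2 IER genes with a window had no CArG box in it.

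The core of the cAMP response element, TGACG on either strand, was found for *Egr2*, *Nr4a1*, *Nr4a2* and *Srf*, and for 36.8% of the 8594 expressed genes. *Nr4a1* and *Nr4a2* each held 4 copies, as 76 of the 32851 windows (0.231%) did with 4 or more, also counted after the copies had been seen. The stretches with these copies in capitals, on the strand of the gene, lie at chr15:101266596-101266840 (plus strand) for *Nr4a1* and chr2:57124080-57124233 (minus strand) for *Nr4a2*.
Nr4a1: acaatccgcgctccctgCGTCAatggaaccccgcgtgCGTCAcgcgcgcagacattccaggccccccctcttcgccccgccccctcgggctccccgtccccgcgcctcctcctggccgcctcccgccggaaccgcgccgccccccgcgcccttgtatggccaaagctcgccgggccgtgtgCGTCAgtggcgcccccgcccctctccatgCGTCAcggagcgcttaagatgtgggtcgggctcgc
Nr4a2: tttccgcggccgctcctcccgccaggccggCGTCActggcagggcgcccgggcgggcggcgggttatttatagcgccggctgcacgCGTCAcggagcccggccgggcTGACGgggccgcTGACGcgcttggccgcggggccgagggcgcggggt

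The ETS core CCGGAA was found for *Egr2*, *Nr4a1*, *Srf* and *Zfp36*, and for 33.7% of the 8594 expressed genes. TATAAA, searched on both strands, was found for *Nr4a2* and *Srf*, and for 8.09% of these genes. It began at -164 from the start in *Nr4a2* and at -38 in *Srf*, on the strand opposite to the gene in both. The whole cAMP response element TGACGTCA, the RUNX core TGTGGT, the AP-1 site TGANTCA, the EGR site GCGTGGGCG and the NR4A site AAAGGTCA were found for 0 of the 7 genes, with shares of 3.80%, 14.5%, 6.19%, 1.45% and 1.07% among the 8594 genes. These counts describe letters in short windows and not binding.

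The genes around the 10 were described by lists written from general knowledge. Of 30 other immediate-early genes that were expressed, 21 were higher and 2 lower by 0.5 or more, with a median log2 difference of 0.80. Of all 11231 expressed genes, 12.1% were higher and 9.29% lower by as much. *Atf3*, a stress-induced transcription factor, had 2.69 FPKM in KPR- and 21.3 FPKM in KPRrestored, and *Dusp1*, a MAP kinase phosphatase, had 9.23 and 38.4 FPKM. On the other side, *Ctgf*, a matricellular gene, had 54.8 FPKM in KPR- and 25.9 FPKM in KPRrestored, and *Gadd45b* had 32.9 and 22.8 FPKM. The genes nearest the median of the 10 were *Csrnp1* (log2 difference 0.95), *Btg1* (1.00) and *Rhob* (1.03), a likeness over 2 libraries only.

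The 3 expressed relatives of the 10 genes had differences from 0.14 to 0.40. *Zfp36l1* and *Zfp36l2*, which encode proteins of the tristetraprolin family, had log2 differences of 0.35 and 0.40, and *Ier5l* had 0.14, from 30.5 to 33.6 FPKM. All 3 intervals lay above 0 and all 3 differences under 0.5. An interval above 0 was found for 34.3% of the 11135 expressed genes with estimated fragments, and 78.6% of all expressed genes lay within 0.5 either way. *Nr4a3*, the third NR4A receptor, had 0.0843 FPKM in KPR-, about 10 fragments, and was listed at 0 in KPRrestored, the opposite direction to *Nr4a1* and *Nr4a2*. *Egr4* and *Zfp36l3* were listed at 0 in both libraries. The EGR corepressors *Nab1* and *Nab2*, which bind EGR proteins and limit them, had 11.8 and 10.2 FPKM in KPR- and differed by 0.26 and 0.43.

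The partners of serum response factor showed no common direction. *Elk1* differed by 0.38, from 6.87 to 8.95 FPKM, while *Elk3* differed by -0.29 and *Elk4* by -0.70, from 6.75 to 4.17 FPKM. *Mkl1* and *Mkl2*, which encode the actin-regulated MRTF cofactors, differed by 0.14 and 0.15, and *Myocd* was listed at 0. Of the 10 expressed cytoskeletal target genes of serum response factor, 1 was higher and 1 lower by 0.5 or more, with a median of -0.18 and 7 counting intervals below 0. The shares past 0.5 among all 11231 expressed genes were 12.1% higher and 9.29% lower. An interval below 0 was also found for 33% of the 11135 expressed genes, and it is reached more easily by genes with many fragments, such as *Actb*. *Vcl* (vinculin) had 66.0 FPKM in KPR- and 43.7 FPKM in KPRrestored, and *Actb* (beta-actin) had 2526 and 1977 FPKM, while *Fhl2* had 28 and 41.6 FPKM and *Ankrd1* 226 and 295 FPKM. Reads of *Actb* can be shared with near-identical actin genes and pseudogenes.

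**Figure D4:**
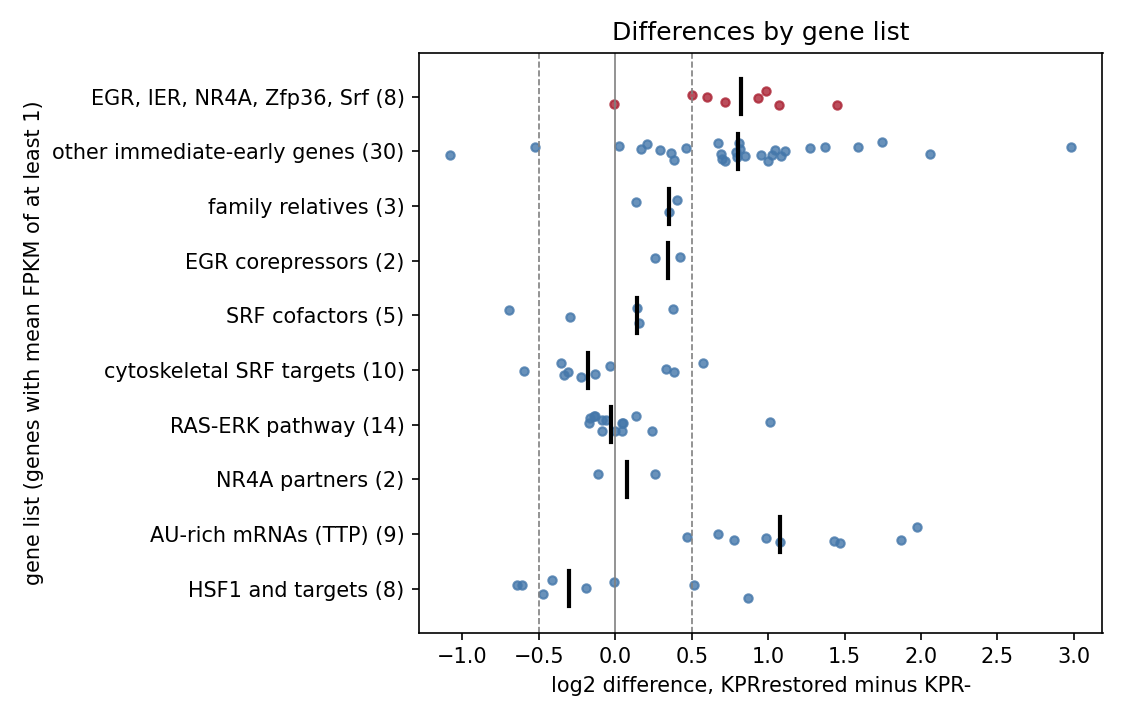
Log2 difference (KPRrestored minus KPR-) of each expressed gene, by gene list, with the number of genes in brackets and black bars at the median. Dashed lines mark 0.5 and -0.5, points are spread vertically for sight only, and *Ier3* and *Myc* are on 2 lists each. The medians are 0.82 for the 8 genes described here, 0.80 for other immediate-early genes, 1.08 for AU-rich mRNAs and -0.18 for cytoskeletal targets.

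Of the 14 expressed RAS-ERK genes upstream of these promoters, 1 was higher and 0 were lower by 0.5 or more, with a median of -0.031. Of all 11231 expressed genes, 12.1% were higher and 9.29% lower by as much, and 78.6% lay within 0.5 either way. The counting interval lay above 0 for 3 of the 14 and below 0 for 4, against 34.3% and 33% of the 11135 with estimated fragments. The 1 gene past 0.5 was *Rps6ka2*, which encodes an RSK kinase, at 6.26 FPKM in KPR- and 12.6 FPKM in KPRrestored. *Mapk3* (ERK1) had a difference of 0.24, and *Rps6ka3*, which encodes another RSK kinase, had -0.17. The NR4A partner receptors *Rxra* and *Rxrb* had -0.11 and 0.26, and *Rxrg* was listed at 0.

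The AU-rich mRNAs known to be bound by tristetraprolin were higher together with *Zfp36*. Of the 9 expressed, 8 were higher and 0 lower by 0.5 or more, with a median of 1.08, and all 9 intervals lay above 0. Of the 11231 expressed genes, 12.1% were higher by as much. An interval above 0 was found for 34.3% of the 11135 with estimated fragments, and genes with many fragments, such as *Ptgs2*, reach it more easily. *Ptgs2* (COX-2) had 41.4 FPKM in KPR- and 163 FPKM in KPRrestored, and *Cxcl2*, a neutrophil chemokine, had 6.31 and 23.1 FPKM. *Tnf* had 0.380 and 0.246 FPKM from about 12 and 8 fragments, too few to tell a direction. *Ier3* and *Myc* are on this list as well as among the immediate-early genes, and several of the others are immediate-early genes too, so the lists are not independent of each other. Handling of the cells and a change of medium or serum before RNA isolation were not tested.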

How the data were processed

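Poly(A) RNA of 1 KPR- and 1 KPRrestored library was sequenced as paired-end reads from directional libraries. Per the study's methods, the authors trimmed the reads and mapped them using TopHat. The deposited values are FPKM, 1 per gene symbol, and the study's methods name Cufflinks for estimating FPKM. The methods also name a geometric normalization of the read counts with EdgeR. Whether it was applied to the deposited values is not given in the sources used here. If it was, the fitted depths include its scaling. The submitters' processing notes name mm10, and tool versions and the annotation are not given in the sources used here. FPKM per gene does not separate isoforms, and values of genes with few fragments are imprecise.

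The pseudocount of 0.005 and the threshold of 0.5 follow the study's supplementary data. Fragments were estimated with the longest GENCODE M21 transcript that has a RefSeq counterpart (the longest of all where none has one). The depth and a mean fragment length of 210 bases were fitted to 4518 single-transcript genes, for which 78.4% (KPR-) and 80.4% (KPRrestored) of values between 0.5 and 5.5 fragments lay within 0.1 of a whole number, where 20% of evenly spread values would. Of the symbols, 22148 matched the annotation directly and 656 through a synonym, and 22615 genes had estimated fragments. Reads carried no molecular identifiers in the sources used here, so intervals cover counting error only. The fit and intervals were tested on simulated data.

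The 10 genes and the lists were chosen with earlier results of these data known. Genes named from lists were all genes of lists of up to 6, in longer lists the 2 genes furthest up and the 2 furthest down in log2(FPKM + 1), and the 3 of the first list nearest the median of the 10. *Myc* and *Hsf1* were named after their values were seen. Some genes that this rule or the marker lists would name are not reported here. Alternatives were pseudocounts of 0.1 and 1, equal FPKM totals, median centring, equal upper quartiles, a threshold of 1, filters on mean FPKM, shorter transcripts and shorter promoter windows. The software was Python 3.11.15 with scipy 1.17.1, numpy 2.4.6, matplotlib 3.10.9 and pandas 2.3.3.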

Additional observations from a re-analysis of the deposited data

How the results depend on the processing

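The 5 alternative scales were pseudocounts of 1 and 0.1, equal FPKM totals, median centring and equal upper quartiles. The direction of the 9 genes that were higher did not change under any, but this was all but fixed in advance. A pseudocount keeps the direction, and equal totals and equal upper quartiles moved the median expressed gene by only -0.0064 and -0.034. The median taken off by centring was 0.0086. Of the 50 recomputed differences, 48 stayed within their counting intervals. The exceptions were *Egr1* at 0.84 and *Egr3* at 0.52 with a pseudocount of 1, which shrinks differences of low genes by construction. The number of the 10 genes at 0.5 or more was 7 with a pseudocount of 1 and 8 with each of the other 4, and *Ier5* is lost under all 5. The share of all expressed genes at 0.5 or more was not recomputed under these scales. With a threshold of 1, 4 of the 10 were higher, and of the 30 other expressed immediate-early genes 10 were higher and 1 lower. Among the 11231 expressed genes, 2.53% had a larger difference than *Nr4a1* at 1.07, and 3.01% a larger one than *Ier3* at 0.98. The share lower by 1 was not counted. The median of the 10 was 0.56 with a pseudocount of 1, 0.84 with 0.1, and 0.82 over the 8 genes that averaged 1 FPKM or more. With the shortest coding transcript the lower limit of *Egr3* was 0.31 and no interval changed its side of 0. Of 128 counts recomputed for the other lists, 10 moved by more than 1.5 times or changed to or from 0. The 2 libraries give no measure of variation between cultures, and depth limits *Egr2* most. No paired analysis was possible because each group has 1 library.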

Other observations

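The 10 genes are compact. Their median span on GRCm38 was 5.29 kb with a median of 2 exons, against 24.2 kb and 9 exons for 10342 expressed protein-coding genes (averaging 1 FPKM or more), and 8 of the 10 spanned under 10 kb, as did 23.3% of those genes. *Ier2* and *Ier5* have 1 exon, *Ier3* spans 1.24 kb, and *Nr4a1*, at 20.5 kb, is the longest. The AU-rich heptamer TATTTAT, searched on the transcript strand after the values had been seen, occurred in the 3′ UTR of 4 of the 10 genes and of 30.3% of the 10342. *Ier3* held 4 copies in 613 bases, *Zfp36* 3 copies in 774 bases, and *Nr4a2* and *Srf* 1 copy each. Pooled over the 3′ UTRs, there were 0.754 copies per kb in the 10 genes and 0.294 in the 10342. *Zfp36* and *Srf* overlap annotated antisense genes, *Gm44710* and *Gm26904*, for which the files hold no values, and whether the authors' estimates used strand is not given in the sources used here.

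HSF1 and its target genes, listed because of *Ier5*, differed in both directions. Of the 8 genes, 2 were higher and 2 lower by 0.5 or more, with a median log2 difference of -0.30. Of all 11231 expressed genes, 12.1% were higher and 9.29% lower by as much. The counting interval lay below 0 for 5 of the 8 and above 0 for 2. Among the 11135 expressed genes with estimated fragments, these shares were 33% and 34.3%. *Hspb1* had 36.7 FPKM in KPR- and 67.0 FPKM in KPRrestored, and *Bag3* had 33.1 and 47.3 FPKM. *Hsph1* had 135 and 86.7 FPKM and *Hspa1b* 35.5 and 23.2 FPKM, the latter sharing reads with the near-identical *Hspa1a*. *Hsf1* itself differed by -0.0062.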
